A study of Mus musculus with 6 samples.

Results

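The genotype difference of the arsenite effect is, for each gene, the arsenite response of Dot1L null mouse embryonic fibroblasts set against that of wild-type fibroblasts. It was computed as log2((RPKM + 1) with arsenite/(RPKM + 1) without) in null cells minus the same quantity in wild-type cells, where RPKM is reads scaled to gene length and library depth. Of 37224 genes in the deposited table, 12588 reached an RPKM of 1 in some RNA library and were described; the libraries number 4. A positive difference means that the null response lay above the wild-type response. This covers genes that were lower with arsenite in both genotypes and less so in the null, genes that were higher in both and more so in the null, and genes that went opposite ways. A difference was counted from a size of 1 on the log2 scale, which is 2-fold on RPKM + 1. Adding 1 makes the scale understate the differences of genes with low levels.

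The study profiled fibroblasts labelled primary, of C57BL/6 background and described as diploid and nontumorigenic, either wild type (MEF) or Dot1L-/-, in an experiment whose title concerns arsenite, the histone acetyltransferase p300 and acetylation at enhancers. The 4 groups were wild-type control, wild-type arsenite, Dot1L null control and Dot1L null arsenite, each with 1 library. All cells grew in high-glucose DMEM with fetal bovine serum, and treated cells received sodium arsenite for 24 h at what the labels call a low dose. The protocol lists 5 and 10 µM and does not say which was sequenced, and nothing says how many cultures or clones stand behind a library. DOT1L places methyl groups on lysine 79 of histone H3, a mark found along transcribed genes. Arsenite reacts with protein thiols, sets off the oxidative stress response that the factor NRF2 drives, and activates kinases of the initiation factor eIF2, which slows protein synthesis and raises translation of the factor ATF4. Many of the genes below belong to programs of sterol supply, amino acid supply, inflammation, attachment to the matrix, and the making of RNA and ribosomes. Whether arsenite reaches these programs through the factors named here was not tested.

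The whole-read steps of the deposited values gave 62972880 and 64699847 reads for the wild-type and null controls, and 10833103 and 11879632 for the matching arsenite libraries. The controls were 5.81 and 5.45 times deeper than the arsenite libraries of their genotype, so treatment and depth cannot be told apart. The genes described had a median of 2057, 179, 1668 and 145 reads in the same order, and 1301 and 1461 of them had under 10 reads in the 2 arsenite libraries. With 1 library per group no difference has a replicate check, and none was tested. Intervals in parentheses are 95% intervals for counting error only, from reads that carry no molecular identifiers, and they leave out the spread between cultures. Of 11 fibroblast markers 9 passed the filter on level, Thy1 was listed at 0 in all 4 libraries, and their summed RPKM ran from 2277 in the null control to 12121 in null arsenite, of which the calcium-binding S100a4 made up 949 and 10957. Endothelial, skeletal muscle and pluripotent or germ cell markers summed to at most 2.23, 0.213 and 0.894 RPKM in any library, and macrophage and leukocyte markers to between 4.94 and 24.5. Cartilage and bone markers summed to 1096 RPKM in wild-type control against 206, 101 and 51.5 in wild-type arsenite, null control and null arsenite. Most of it was the secreted phosphoprotein Spp1 (1058, 193, 67.0 and 32.8), with 4 of 9 past the filter and Ibsp listed at 0 in all 4 libraries. Sox9 went the other way, higher in the null in both conditions, at 2.80, 1.61, 25.7 and 14.1 RPKM. Col2a1 and Runx2 were, like Spp1, highest in wild-type control, at 19.1 and 15.5 RPKM. Neural and glial markers, 3 of 9 past the filter, were also highest in wild-type control, at 122 RPKM against 34.9, 45.1 and 42.6. Epithelial markers, 2 of 8 past the filter and Epcam and Cldn3 listed at 0 throughout, summed to 3.68, 2.04, 7.90 and 22.7. Adipocyte markers, 2 of 7 past the filter, summed to 5.68, 10.3, 4.62 and 23.4. Both sums were highest in null arsenite, where nearly all of each was 1 gene, Krt19 (22.4) and Fabp4 (22.6). The other member past the filter in each list was lowest there. Cdh1 stood at 2.71, 0.182, 0.284 and 0 RPKM, and Pparg at 3.72, 1.81, 2.17 and 0.509. The part of these markers' cells in the differences that wild-type control and null arsenite carry was not tested. In bulk RNA, fewer cells of a type and less RNA per cell cannot be told apart.

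The null response lay at least 2-fold above the wild-type response in 1524 genes (12.1%) and at least 2-fold below it in 1610 (12.8%). The median difference of all 12588 genes was −0.06, the 5th percentile −1.45 and the 95th 1.51. Just inside the bound on the positive side were 253 genes, with a difference from 1 to under 1.1, and just outside were 272 from 0.9 to under 1. On the negative side 279 lay within 0.1 inside the bound and 321 within 0.1 outside it. Opposite responses, each past 2-fold, were found in 45 of the 12588 genes. In 33 (0.262%) the gene was lower with arsenite in wild type and higher in the null, and in 12 (0.0953%) it was the other way round.

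**Figure D1:**
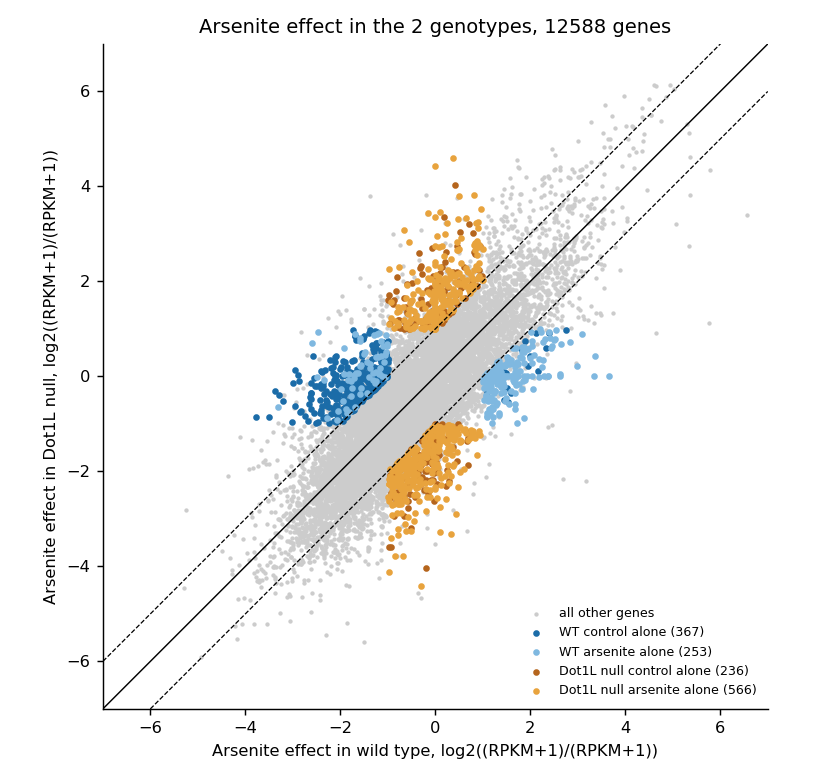
Arsenite effect in wild type (x axis) against that in Dot1L null cells (y axis), both as log2((RPKM + 1)/(RPKM + 1)) with arsenite over control, 1 point for each of 12588 genes. The solid line marks equal effects and the dashed lines a difference of 1 in size. Colors mark the 367, 253, 236 and 566 genes whose difference is carried by 1 library, and most genes lie between the dashed lines.

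The same difference can be read from another side, as the genotype gap with arsenite minus the genotype gap without it. The 4 libraries thus form a square with 4 sides: the arsenite effect in each genotype and the genotype gap in each condition. A library was said to carry a difference alone where both sides that meet in it were past 2-fold and the other two were not. By this rule null arsenite alone carried 566 genes (4.5% of all 12588), wild-type control alone 367 (2.92%), wild-type arsenite alone 253 (2.01%) and null control alone 236 (1.87%). The remaining genes past the bound showed other patterns, of which the most frequent was 3 sides past 2-fold with only the untreated genotype gap under it, in 344 genes (2.73%).

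The 4 libraries differed in the direction in which they stood apart. Wild-type control was the high library in 351 of its 367 genes (2.79% of all genes), which gives positive differences, and the low one in 16 (0.127%). Wild-type arsenite was high in 190 (1.51%), which gives negative differences, and low in 63 (0.5%). Null control was high in 139 (1.1%) and low in 97 (0.771%), and null arsenite was high in 259 (2.06%) and low in 307 (2.44%), so these 2 libraries were more evenly split. The lean of the wild-type control depended on the scaling between libraries: 118 genes had it as the high library when each library was scaled to the same median, and 193 when the trend of the arsenite effects on gene length was removed. The genes that null arsenite carried had a median of 90.5 reads in that library, against 1629 for the genes that wild-type control carried.

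**Figure D2:**
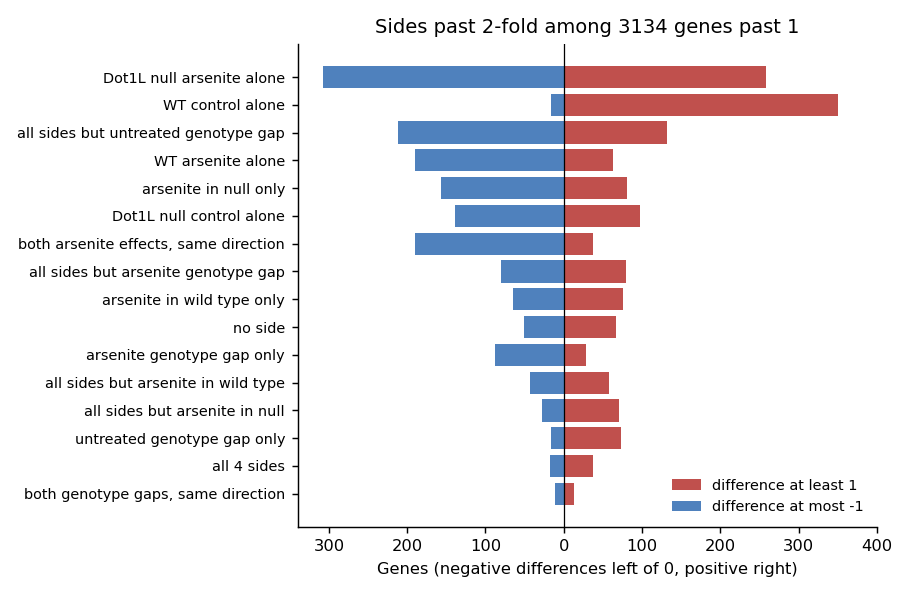
Number of genes (x axis) by the pattern of sides past 2-fold (y axis), for the 3134 genes with a difference past 1 in size; bars to the right are positive differences and bars to the left negative ones. Wild-type control alone has 351 positive and 16 negative genes, while null arsenite alone has 259 and 307.

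Over all genes, the null was at least 2-fold higher than wild type in 6.45% without arsenite and 8.75% with it, and at least 2-fold lower in 14.7% and 16.9%. For 1322 genes with a difference past the bound (10.5% of all) the larger genotype gap was the untreated one, and for 1812 (14.4%) it was the one with arsenite. The untreated gap was the larger in 828 of the 1524 positive differences, 54.3% of them, and in 494 of the 1610 negative ones, 30.7%. As scaled here, the untreated gap was thus the larger slightly more often among positive differences, and the gap with arsenite more often among negative ones. These shares were not recomputed under other scalings between libraries, which can change which gap is the larger. Gene length moved with the arsenite effect itself in both genotypes, by −0.70 in wild type and −0.72 in the null on the log2 scale per doubling of length. The median effects ran from 1.01 and 1.14 for genes of 500 to under 1000 bases to −1.47 and −1.42 for genes of at least 8000 bases. The part of length, or of RNA quality, in any single effect was not tested. Length and level also went with the counts of differences. Among 322 genes with a recovered length from 200 to under 500 bases, 33.5% had a positive and 11.8% a negative difference, while the 1206 genes of at least 8000 bases had 8.37% and 7.71%. With mean RPKM at or above 100, 8.40% of 607 genes were positive and 20.1% negative, against 15.8% and 9.34% of the 1371 genes with a mean under 1.

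Gene lists summarized these differences by function. The counts of positive and negative list members given below stand against 12.1% and 12.8% of all 12588 genes. The lists that lay highest were enzymes of cholesterol synthesis, complement and acute phase genes, chemokines, collagens and the NF-kB system. The lists that lay lowest were enzymes of serine and asparagine synthesis, aminoacyl-tRNA synthetases, ribosome biogenesis genes and splicing factors. In these 5 highest lists the median arsenite effect was negative in wild type, and in the null it was less negative or above 0. In these 4 lowest lists it was negative in wild type and more negative in the null. The medians of a list can fall on different genes and so point different ways. The interferon response list had a median difference of 0.90, yet median effects of 0.33 in wild type and −0.00 in the null. The heme, iron and metal handling list had a median difference of −0.36, with median effects of −0.93 in wild type and −0.26 in the null.

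**Figure D3:**
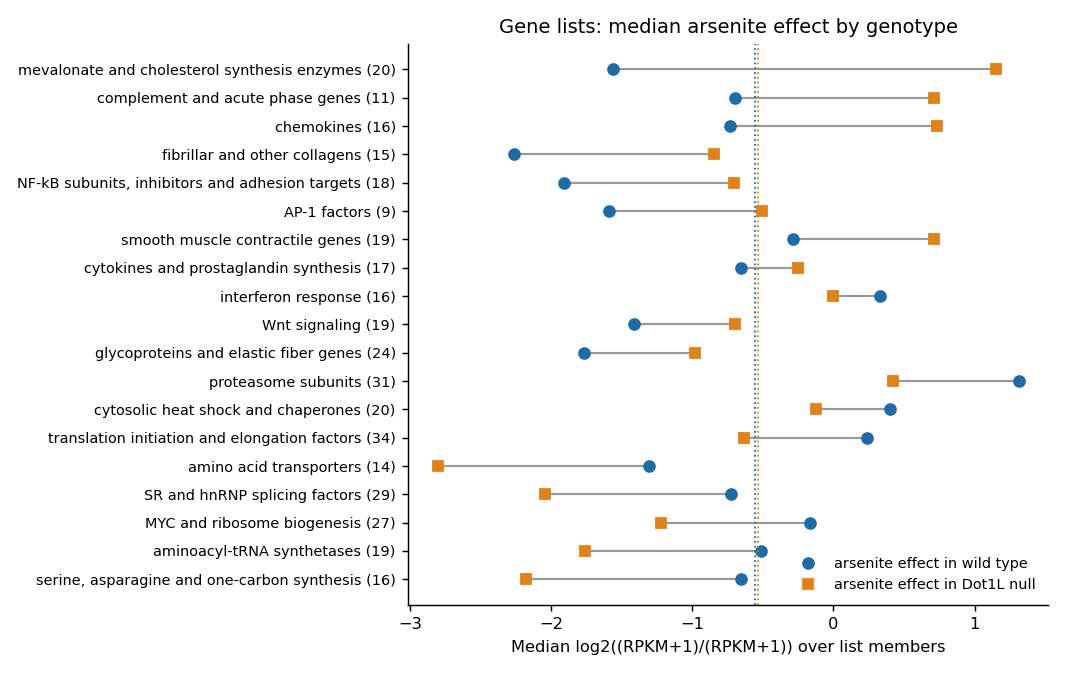
Median arsenite effect of selected pathway lists, as log2((RPKM + 1)/(RPKM + 1)), in wild type (circles) and Dot1L null cells (squares). The number of members past the filter is in parentheses. Only lists with the most positive or most negative median differences are drawn. Lists with smaller median differences and the marker lists are left out. Dotted lines mark the medians of all 12588 genes, −0.56 (wild type) and −0.53 (null). Cholesterol synthesis enzymes have medians of −1.56 and 1.15, and serine and asparagine synthesis enzymes −0.66 and −2.17.

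Cholesterol is built from acetyl-CoA through mevalonate and squalene, and the genes of its enzymes are switched on together by the factor SREBP2 (Srebf2) when membrane sterol is low. Of 20 enzymes in the list, 19 had a difference of at least 1 and none a difference of at most −1, with a median of 2.44. Fdps, which makes farnesyl diphosphate (chr3:89093588-89101967 in GRCm38.p6), had RPKM values of 93.9 in wild-type control, 81.2 in wild-type arsenite, 21.0 in null control and 310.4 in null arsenite. It was 1.16-fold lower with arsenite in wild type (1.08 to 1.23) and 14.8-fold higher in the null (13.98 to 15.6), a ratio of folds of 17.1 (15.7 to 18.6). The null control was the lowest of the 4 libraries and null arsenite the highest. Mvd, which makes isopentenyl diphosphate, stood at 41.1, 9.80, 8.66 and 30.4 RPKM in the same order. Its 2 genotypes went opposite ways, 4.19-fold lower in wild type (3.62 to 4.88) and 3.51-fold higher in the null (3.18 to 3.89). Cyp51, the lanosterol demethylase, repeated that shape at 45.0, 11.5, 11.1 and 31.1 RPKM, 3.92-fold lower (3.60 to 4.29) and 2.79-fold higher (2.62 to 2.96).

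The steps of the pathway were not carried by the same library. The following enzymes were named for their place in the pathway, after their values had been seen. Idi1, the isomerase that follows Mvd, was high in wild-type control alone, at 25.9 RPKM against 4.40, 5.04 and 5.64. Sqle, the squalene epoxidase, was also carried by wild-type control, at 26.7 against 4.48, 11.4 and 8.55. Acat2, the first step from acetyl-CoA, was instead low in the null control alone, at 6.74 RPKM against 42.6, 23.7 and 26.01 in wild-type control, wild-type arsenite and null arsenite. Across the 20 enzymes, 19 were at least 2-fold lower in the null than in wild type without arsenite (14.7% of all genes), and 10 at least 2-fold higher in the null with arsenite (8.75%). In wild type 13 were at least 2-fold lower with arsenite (35.7% of all genes) and 1 higher (12.8%), and in the null 1 was lower (37.1%) and 10 higher (15.2%). Sc5d was the enzyme under the bound, at 31.0, 11.9, 13.1 and 7.45 RPKM and a difference of 0.57.

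Genes of sterol uptake and of SREBP control were less uniform, with 5 of 14 at least 1, none at most −1 and a median difference of 0.76. Srebf2 was carried by wild-type control, at 84.1 RPKM against 10.0, 24.1 and 15.2. Insig1, which holds SREBP2 in the endoplasmic reticulum, was carried by wild-type arsenite, the low library at 6.71 RPKM against 38.3, 20.7 and 19.5. For fatty acid synthesis 5 of 15 genes were positive, led by the elongase Elovl6 (6.19, 2.25, 1.80 and 7.53 RPKM, a difference of 2.75). The motif TCACNCCAC is one form of the SREBP site. Among genes with a promoter window, it was found on either strand for 1 of 15 cholesterol enzymes. Of all such genes past the filter 1.39% had it.

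**Figure D4:**
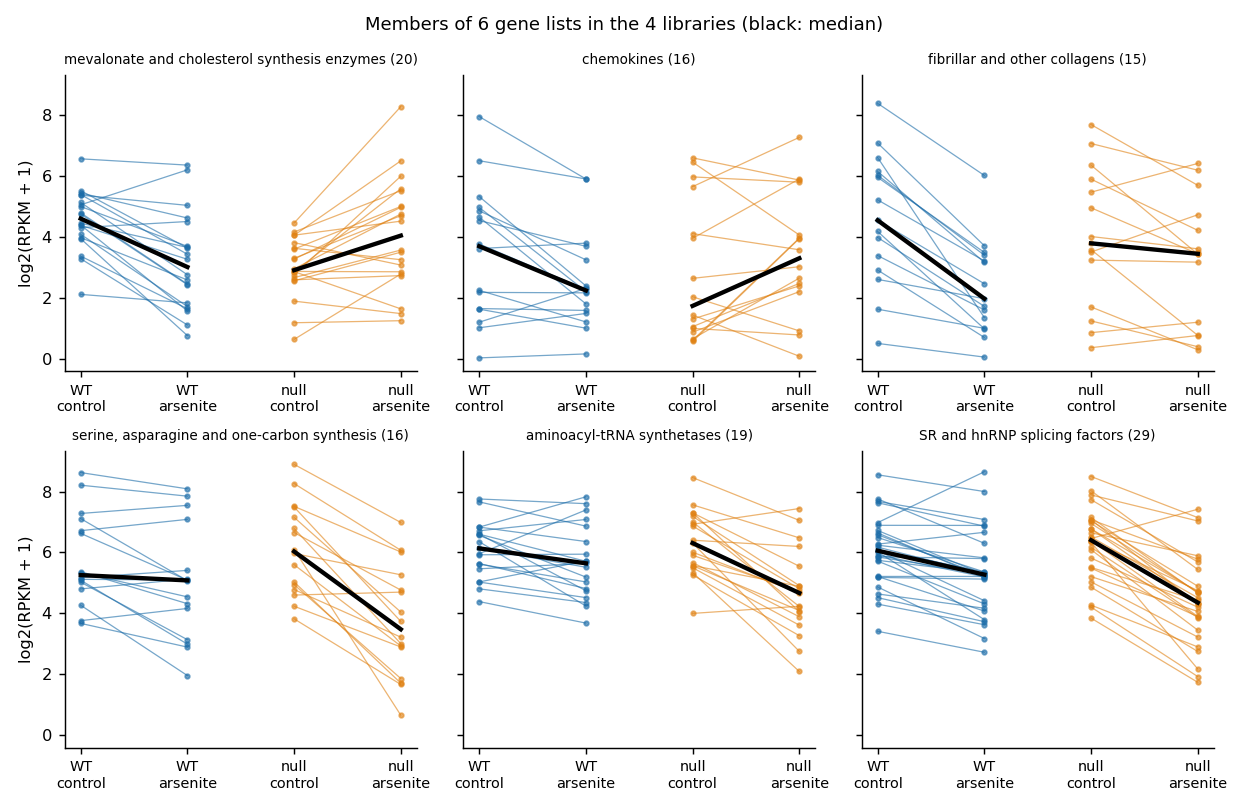
Members of 6 gene lists in the 4 libraries, on a log2(RPKM + 1) scale; each thin line joins control and arsenite of 1 gene within a genotype, and the black line joins medians. The median of cholesterol enzymes is lower with arsenite in wild type and higher in the null, and the medians of the 3 lower lists are lower with arsenite in both, more so in the null.

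The inflammatory lists were positive, but by different libraries. Acute phase proteins are secreted in inflammation and bind iron, hemoglobin or microbial lipids, and complement proteins mark cells for removal. Of 11 such genes, 7 had a difference of at least 1 and 1 a difference of at most −1, with a median of 2.15. With arsenite 11 of 11 were at least 2-fold higher in the null than in wild type, against 8.75% of all genes. Lcn2, which binds bacterial iron carriers, had 34.1, 33.7, 29.8 and 316 RPKM, so the high value lay in null arsenite alone. It was 10.6-fold higher with arsenite in the null (10.2 to 10.98), and in wild type its interval spanned no difference, 1.01-fold lower (0.940 to 1.09). C3, the central complement protein, was carried by wild-type arsenite, the low library at 5.37 RPKM against 62.5, 95.002 and 60.8. Cp, the copper-carrying ferroxidase ceruloplasmin, went opposite ways, 61.8 to 23.0 RPKM in wild type and 27.8 to 106 in the null. Hp, which binds free hemoglobin, was higher in the null in both conditions, at 8.42, 4.81, 25.96 and 118 RPKM.

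Chemokines attract leukocytes, and many are switched on by NF-kB, which its inhibitor Nfkbia holds in the cytoplasm. Of 16 chemokines 12 had a positive difference and none a negative one past the bound, with a median of 1.72. Ccl9 stood at 11.3, 12.9, 0.523 and 14.6 RPKM and Ccl7 at 89.9, 59.0, 14.5 and 59.1. In both the null control was the low library and the 2 arsenite libraries were within 1.5-fold of each other. Ccl5 (12.7, 3.85, 1.08 and 4.56 RPKM) was 3.29-fold lower with arsenite in wild type (2.39 to 4.64) and 4.23-fold higher in the null (2.88 to 6.16), from 40 and 52 reads in the arsenite libraries. Among 18 NF-kB subunits, inhibitors and adhesion targets, 11 were positive and none negative, with a median of 1.21, and wild-type control carried 5 of them, against 2.79% of all genes in that direction. Nfkbie, an inhibitor of the same family as Nfkbia, had 38.2 RPKM there against 5.60, 5.26 and 7.47. Birc3, an inhibitor of apoptosis, had 7.77 RPKM there against 0.682, 0.682 and 0.790. For these genes the difference was a high untreated wild type, and the other 3 libraries lay close together. Nfkbia was carried by the null control, at 44.4 RPKM against 131, 92.1 and 177.

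Promoter windows, 250 bases before to 50 after a start in RefSeq on GRCm38.p6, were searched on both strands for GGGA and TTTCC with any base between them, a form of the NF-kB site. Among genes with a window it was found for 3 of 12 chemokines, 2 of 12 of the NF-kB list and 0.486% of all past the filter. The stretches below show where it lies in 3 genes carried by different libraries or patterns: Cxcl3 by null arsenite, Nfkbia by null control, and Cxcl1 by 3 sides with wild-type arsenite against control the one under 2-fold. Each reads 5′ to 3′ on the gene's strand with the match in capitals, and in Nfkbia the match is on the opposite strand. Cxcl3 stretch chr5:90786002-90786063, Nfkbia stretch chr12:55492648-55492702 and Cxcl1 stretch chr5:90891148-90891209 were taken from that table.
Cxcl3: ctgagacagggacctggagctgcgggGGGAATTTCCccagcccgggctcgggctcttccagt
Nfkbia: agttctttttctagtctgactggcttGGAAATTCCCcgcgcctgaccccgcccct
Cxcl1: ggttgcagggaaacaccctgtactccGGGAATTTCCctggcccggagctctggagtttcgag
The matches end 64, 20 and 62 bases before the start. Cxcl1 had 3.53, 3.49, 49.4 and 154 RPKM, and Cxcl3 had 2.09, 1.01, 1.47 and 4.25.

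Collagens form the fibers and beaded filaments around fibroblasts. Of 15 collagen genes 11 had a positive difference and 1, Col18a1, a negative one, with a median of 1.49. Their median arsenite effect was −2.26 in wild type against −0.85 in the null, lower in both and more so in wild type. Col6a1 and Col6a2, neighbors on chromosome 10 whose products join in 1 filament, shared a shape. Col6a1 (chr10:76708792-76726044) stood at 61.2, 10.2, 43.4 and 84.4 RPKM, 5.97-fold lower with arsenite in wild type (5.46 to 6.55) and 1.94-fold higher in the null (1.88 to 2.01). Col6a2 (chr10:76595756-76623630) stood at 14.8, 2.29, 10.4 and 25.6, 6.45-fold lower (5.62 to 7.45) and 2.47-fold higher (2.35 to 2.58). In both, wild-type arsenite was the lowest library and null arsenite the highest. Col3a1, a fibrillar collagen, differed in shape, at 135 RPKM in wild-type control against 12.1, 12.9 and 10.3, so its difference lay in wild-type control alone. Bmp1, the protease that trims procollagen, was carried by the same library, at 65.7 RPKM against 19.6, 21.4 and 39.2. Sfrp1, a secreted inhibitor of Wnt signals, followed Col6a2 at 16.5, 3.23, 10.7 and 29.4 RPKM.

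Matrix-degrading enzymes and their inhibitors had members at both ends. Of 22 metalloproteinases, inhibitors and serpins, 8 were positive (36.4%, against 12.1% of all genes) and 3 negative (13.6%, against 12.8%), with a median of 0.38. The negative share thus lay near that of all genes. Mmp3 (stromelysin 1) had 58.4, 34.4, 0.602 and 9.88 RPKM and Mmp10 (stromelysin 2) 5.83, 5.53, 0.108 and 6.22. Both genes were nearly silent in the null control. Mmp10 was 57.6-fold higher with arsenite in the null (31.9 to 114), and the ratio to the wild-type fold was 60.7 (31.9 to 124). Mmp9, a gelatinase, had another shape, 12.4, 0.470, 4.22 and 2.97 RPKM, lowest in wild-type arsenite with 18 reads. Thbd, the thrombin receptor thrombomodulin of the same list, was at the other end, at 0.414, 0.0993, 112 and 3.78 RPKM and a difference of −4.20: it was high in the null control.

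The motif TGANTCA is the AP-1 site that FOS and JUN proteins bind. Among genes with a promoter window it was found for 11.2% of 947 positive genes and 5.99% of 1118 negative genes. It was found for 6.17% of all such genes past the filter and for 5 of 14 in the metalloproteinase list. The stretches of Mmp3 (chr9:7445750-7445808) and Mmp10 (chr9:7502253-7502311) show the match in capitals for the neighboring pair of genes that were low in the null control, and that of Ccl9 (chr11:83578657-83578715) for a chemokine carried by the null control.
Mmp3: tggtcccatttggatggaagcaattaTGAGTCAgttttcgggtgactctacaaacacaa
Mmp10: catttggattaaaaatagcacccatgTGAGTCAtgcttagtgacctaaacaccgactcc
Ccl9: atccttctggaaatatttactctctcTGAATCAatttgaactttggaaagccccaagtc
Of the AP-1 genes themselves, 5 of 9 were positive and none negative, with a median difference of 1.07. Junb was carried by wild-type control (133 RPKM against 39.5, 45.5 and 43.2). Egr1, an immediate early factor, was carried by wild-type arsenite, the low library at 2.70 RPKM against 21.5, 12.8 and 21.3.

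Smooth muscle contractile genes mark fibroblasts that pull on their matrix and are switched on by serum response factor at CArG boxes. Of 19 such genes 10 were positive and none negative, with a median of 1.06. Acta2, smooth muscle actin, stood at 721 RPKM in wild-type control, 956 in wild-type arsenite, 80.5 in null control and 1328 in null arsenite. The null control alone was low, and the arsenite libraries were within 1.5-fold of each other. Acta2 was 16.5-fold higher with arsenite in the null (16.1 to 16.9) and 1.33-fold higher in wild type (1.30 to 1.35). Fhl3, a partner of actin and of muscle transcription factors, followed it at 40.5, 31.9, 7.66 and 51.1 RPKM. Cnn2, a calponin, was carried by the same library at 219, 229, 102 and 421. Tagln, a further actin-binding protein, did not: it was higher in the null in both conditions, at 2.80, 9.72, 20.0 and 248 RPKM. Vcl, which links actin to adhesions, was high in wild-type control alone, at 139.7 RPKM against 16.3, 32.3 and 16.002. The smooth muscle and pericyte markers summed to 725, 958, 94.9 and 1332 RPKM, nearly all of it Acta2, with 3 of 7 past the filter; the part of other cells in these values was not tested.

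Among genes with a promoter window, a CArG box was found for 4 of 17 in this list and for 1.61% of all past the filter. The stretches of Cnn2 (chr10:79988518-79988579) and Vcl (chr14:20929148-20929206) are shown, with the box in capitals, because the same letters stand before genes whose differences were carried by different libraries.
Cnn2: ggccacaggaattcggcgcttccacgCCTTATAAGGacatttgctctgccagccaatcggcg
Vcl: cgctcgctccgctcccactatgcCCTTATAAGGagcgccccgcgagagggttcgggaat
The boxes end 47 and 218 bases before the start.

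Amino acid supply lay at the negative end. Under stress, ATF4 switches on enzymes that make serine, asparagine and one-carbon units, transporters that import amino acids, and the synthetases that load them onto transfer RNA. Of 16 serine, asparagine and one-carbon enzymes, 11 had a difference of at most −1 and none of at least 1, with a median of −1.62. Null arsenite carried 6 of them, against 2.44% of all genes in that direction. Psph, the last step of serine synthesis (chr5:129765558-129787443), had 26.9, 34.0, 31.7 and 2.27 RPKM, 1.26-fold higher with arsenite in wild type (1.19 to 1.33) and 13.97-fold lower in the null (11.6 to 17.1). Asns, asparagine synthetase (chr6:7675165-7693209), had 104, 135, 99.7 and 26.2 RPKM, 1.30-fold higher (1.25 to 1.34) and 3.81-fold lower (3.55 to 4.08). The first 3 libraries of each gene lay close together and null arsenite lay under them. Got1, which makes aspartate, the precursor of asparagine, also had a high null control, at 39.5, 22.3, 109.5 and 7.03 RPKM. Aldh1l2, a mitochondrial folate enzyme, had 18.2, 2.88, 67.5 and 0.572 RPKM and was lower with arsenite in both genotypes, 6.34-fold (5.56 to 7.25) and 118-fold (89.7 to 158), the last from 51 reads. Cth, which makes cysteine from cystathionine and belongs to the list of transsulfuration and glutathione synthesis, had 44.2, 14.9, 54.5 and 0.149 RPKM.

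Of 19 cytosolic aminoacyl-tRNA synthetases, 13 were negative and none positive, with a median difference of −1.29. Null arsenite carried 5 of them (2.44% of all genes). Dars, the aspartate enzyme, stood at 31.6, 21.9, 39.5 and 3.26 RPKM, 12.1-fold lower with arsenite in the null (9.93 to 14.98) and 1.44-fold lower in wild type (1.33 to 1.57). Wars, the tryptophan enzyme, was carried by the null control, the high library at 127 RPKM against 48.1, 31.7 and 17.7. Farsb, a subunit of the phenylalanine enzyme, was carried by null arsenite, at 24.4 RPKM against 31.7, 51.9 and 63.4. Of 18 regulators of the ATF4 stress response, 5 had a difference of at most −1 and none of at least 1, with a median of −0.50. With arsenite 10 of the 18 were at least 2-fold lower in wild type (35.7% of all genes) and 13 in the null (37.1%), and 1 was at least 2-fold higher in wild type. Trib3, a pseudokinase induced by ATF4, had 133, 34.6, 96.2 and 5.98 RPKM, and Atf3, a repressor of the same pathway, had 46.5, 3.07, 80.3 and 1.19. Of 14 amino acid transporters 6 were negative and none positive, and Slc7a5, which imports large neutral amino acids, had 121, 27.9, 289 and 18.04 RPKM.

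The motif TGATGNAA is a form of the element that ATF4 binds together with C/EBP proteins. A promoter match was found for 5 of 12 synthetases, 3 of 13 genes of the serine list and 5 of 17 stress regulators. These shares and those that follow are of genes with a promoter window, and 2.65% of all such genes past the filter matched. The motif was found for 3.76% of all negative genes and 2.43% of all positive genes. Among genes that null arsenite carried alone the order was the other way, with 3.93% of 229 negative and 5.47% of 128 positive genes. The stretches of Asns (chr6:7693210-7693258), Pycr1 (chr11:120643818-120643877), Got1 (chr19:43524674-43524733), Gars (chr6:55037945-55038000) and Tars (chr15:11399659-11399699) show the match in capitals for members with a negative difference, in the last 3 on the opposite strand.
Asns: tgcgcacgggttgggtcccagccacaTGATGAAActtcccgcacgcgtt
Pycr1: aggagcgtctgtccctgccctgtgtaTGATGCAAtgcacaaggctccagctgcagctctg
Got1: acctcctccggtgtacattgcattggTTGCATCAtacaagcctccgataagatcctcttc
Gars: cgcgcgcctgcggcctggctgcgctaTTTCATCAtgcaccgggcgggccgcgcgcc
Tars: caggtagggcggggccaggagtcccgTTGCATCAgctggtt
Pycr1, which makes proline, had 12.6, 16.9, 17.8 and 6.44 RPKM. Gars and Tars, the glycine and threonine enzymes, had 215, 194, 351 and 132, and 201, 115.6, 115.9 and 27.02. In each of these 5 genes null arsenite was the lowest library. None of the matches printed in these paragraphs overlapped a match of another motif searched.

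Genes that make and process RNA and ribosomes were also negative. Of 29 SR and hnRNP splicing factors 18 had a difference of at most −1 and none of at least 1, with a median of −1.13, and null arsenite carried 7 (2.44% of all genes). Srsf2, which binds exonic enhancers, stood at 74.5, 55.6, 141 and 24.4 RPKM, 1.34-fold lower with arsenite in wild type (1.28 to 1.41) and 5.79-fold lower in the null (5.41 to 6.21). Of 27 MYC and ribosome biogenesis genes 18 were negative and 1, the MYC antagonist Mxd4, positive, with a median of −1.28. Npm1, a chaperone of the nucleolus, had 436, 345, 677 and 109 RPKM, and Myc itself 128, 22.97, 149.7 and 6.66. For Myc both genotypes were lower with arsenite, 5.56-fold (5.15 to 6.01) and 22.5-fold (19.7 to 25.8). Of 34 translation factors 9 were negative and none positive. Cytosolic ribosomal proteins, by contrast, were at least 2-fold higher with arsenite in 43 of 46 cases in wild type (12.8% of all genes) and 39 in the null (15.2%), and 2 of them had a difference past −1. Their effects stand beside the length trend given above, in which short genes were higher with arsenite in both genotypes.

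The proteasome and chaperone lists held negative differences past the bound and no positive ones, while antioxidant genes held both. Of 31 proteasome subunits 8 were negative and none positive, with median effects of 1.32 in wild type and 0.42 in the null. Psmd8, of the regulatory particle, was high in wild-type arsenite alone, at 271 RPKM against 115, 115 and 90.1. Of 20 heat shock and chaperone genes, a mainly cytosolic list that also holds the mitochondrial Hspe1 and Hspd1, 9 were negative and none positive. Hspe1 and Hspd1 encode the small and large parts of the mitochondrial folding chamber and differed in shape. Hspe1 had 83.6, 432, 165.6 and 229 RPKM, highest in wild-type arsenite, and Hspd1 had 355, 214, 430 and 65.6, lowest in null arsenite. Ubb, a polyubiquitin gene, went opposite ways at 301, 717, 880 and 368 RPKM, 2.38-fold higher (2.33 to 2.43) and 2.39-fold lower (2.33 to 2.45). Hmox1, heme oxygenase, was carried by the low wild-type control, at 82.4 RPKM against 416, 405 and 618, a difference of −1.72. Ftl1, the ferritin light chain that stores iron, was high in wild-type arsenite alone, at 3867 RPKM against 809.8, 1552 and 1775.

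The glutathione and thioredoxin systems buffer thiols against arsenite. Of 14 transsulfuration and glutathione synthesis genes 5 were negative and none positive. Of 21 thioredoxin, peroxiredoxin and glutathione reduction genes 6 were negative and 2 positive. Gclm, the modifier subunit of the first step of glutathione synthesis, was low in null arsenite alone, at 1.17 RPKM against 12.4, 9.94 and 9.46. Txnrd1, thioredoxin reductase, was carried by the same library, at 17.8 against 79.1, 45.0 and 138. Mgst3, a membrane glutathione S-transferase, was high there, at 206 RPKM against 11.02, 35.8 and 11.9, and was 17.2-fold higher with arsenite in the null (15.9 to 18.6) and 3.25-fold higher in wild type (2.88 to 3.66). Of 20 glutathione S-transferases and quinone reductases 7 were positive and 5 negative, so the family had no common direction. The metallothioneins Mt1 and Mt2, which bind arsenic and zinc, had differences of 0.27 and 0.95, under the bound.

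The most extreme genes included several outside the pathways above. Tmem86a, a lysoplasmalogenase, was high in null arsenite alone, at 49.6 RPKM against 4.85, 2.68 and 5.01. Guca1a, a calcium sensor of photoreceptors, was the most positive gene at 4.22, with 1, 3, 53 and 474 reads, and the interval of its ratio of folds spanned no difference (0.0522 to 35.4). Cox6a2, the muscle form of a cytochrome oxidase subunit, was the most negative at −5.37, with 3.02, 35.1, 18.4 and 3.20 RPKM, and went opposite ways past 2-fold. Nid1, a basement membrane protein, and P2rx3, an ATP-gated channel, were high in the null control, at 87.9 and 19.4 RPKM, against at most 2.48 and 1.12 in the other 3 libraries. Washc4, of the complex that forms actin on endosomes, was high in wild-type arsenite alone, at 125 RPKM against 14.9, 19.9 and 23.4. Cdsn, a protein of cell contacts in skin, was high in the null control, at 292 RPKM against 34.5, 17.5 and 23.1.

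The genes at the center of the study were Dot1l and Ep300. Dot1l had 30.4, 5.71, 9.59 and 1.24 RPKM, lower in the libraries labelled null in both conditions and lower with arsenite in both genotypes, and its difference was −0.02. The table gives 1 value per gene, so a deleted part cannot be seen in it. Ep300, which encodes p300, had 23.1, 1.29, 24.2 and 0.558 RPKM and a difference of −0.61. It was 17.98-fold lower with arsenite in wild type (15.05 to 21.7) and 43.3-fold lower in the null (33.5 to 57.1), and the ratio of these folds was 2.41 (1.76 to 3.30). Both genes had a recovered length over 8000 bases, where the median gene was also lower with arsenite in both genotypes. Its paralog Crebbp had a difference of −1.91, with 4.35, 1.09, 18.1 and 0.998 RPKM: the 2 arsenite libraries were level and the null control was high. Of 17 histone acetyltransferases 2 were negative and none positive, and of 17 genes of DOT1L and its elongation partners 3 were negative and 1 positive, shares of 11.8% and 17.6% negative that lie near the 12.8% of all genes. Cdkn2a, a cell cycle inhibitor, was low in the null control alone, at 40.1 RPKM against 118, 222 and 194, whereas Cdkn1a, at 8.56, 8.84, 143 and 168, was higher in the null in both conditions and had a difference of 0.19.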

How the data were processed

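RNA from 4 groups, 1 library each, was analysed; 2 H3K27ac libraries were not analysed here. The authors deposited RPKM per Ensembl gene. The submitters' processing notes name TopHat, HTSeq, Bowtie, deepTools and mm10, without roles. The labels' protocols describe removal of ribosomal RNA, while the molecule label reads polyA RNA. The sources used here give neither strand setting nor annotation, so overlapping genes may share reads. Of the 12588 genes past the filter, 12436 had a symbol.

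Depth, gene lengths and reads were recovered from whole-read steps of RPKM. Single arsenite folds have Clopper-Pearson intervals. Ratios of folds have Poisson intervals on the log scale, or exact conditional ones with under 20 reads in a library. Neither uses a pseudocount. No test was run, and differences were not rescaled. Scripts were tested on simulated data. Python 3.11.15, pandas 2.3.3, numpy 2.4.6 and scipy 1.17.1 were used.

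Members, the 61 pathway and 10 marker lists, motifs and rules were chosen with earlier results of these data known. Genes were named by rule: the 10 most positive and 10 most negative differences, 4 in each direction per carrying library, 5 of each opposite response, up to 4 per list, and 8 fixed genes; predicted genes, pseudogenes, microRNAs, snoRNAs and spliceosomal RNAs were left out, some chosen genes are not reported here, and list members outside the rule (Idi1, Sqle, Acat2, Sc5d, Col18a1, the marker S100a4 and those with printed promoters) were added after their values were seen. Positions and promoter windows are from RefSeq, GRCm38.p6, with a window for 9256 of the genes. Motif shares count genes, and a gene matched where any of its windows held the motif. Alternatives varied the pseudocount, filter, scaling, length trend and bound.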

Additional observations from a re-analysis of the deposited data

Results flagged for a closer look

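With arsenite, 10 genes named by the rule were past 2-fold in opposite directions in the 2 genotypes. That the genotypes differ was not tested, since each group has 1 library. Lower in wild type and higher in the null were Mvd (difference 3.66), Col6a2 (3.49), Sfrp1 (3.43), Cp (3.29) and Cyp51 (3.28). Higher in wild type and lower in the null were Cox6a2 (−5.37), the mitochondrial transfer RNA gene mt-Tq (−4.86), the S100 protein gene S100a7a (−3.43), the serpin Serpinb9b (−2.82) and Ubb (−2.50). The reads behind mt-Tq were 7, 12, 16 and 0 in wild-type control, wild-type arsenite, null control and null arsenite, so its value rests on few reads. S100a7a had 4.84, 29.3, 3.21 and 1.02 RPKM in that order, and Serpinb9b had 1.89, 7.75, 5.49 and 1.79.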

How the results depend on the processing

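No paired analysis was possible because each group has 1 library. The 1524 positive genes became 636 with a pseudocount of 5, 745 with a mean RPKM of at least 5, and 635 and 265 with bounds of 1.5 and 2. The 1610 negative genes became 2612 and 710 with pseudocounts of 0.1 and 5, and 572 and 191 with those bounds. Genes carried by wild-type control alone (367) became 142 with a pseudocount of 5, 112 with the mean filter, 182 with median scaling, 244 without the length trend, and 143 and 48 with the bounds. For wild-type arsenite alone (253) the pseudocount of 5, the mean filter and the bounds gave 102, 145, 89 and 28. For null control alone (236) they gave 94, 103, 92 and 38, and for null arsenite alone (566) 219, 312, 226 and 88. Positive genes were 48.6% of those past the bound, 38.0% with the mean filter and 58.1% with a bound of 2. Of 14 list medians past 1 in size, 14 kept their sign under every pseudocount, filter, scaling and length setting that gave a value, and 9 also stayed past 1. Of 257 such named genes the numbers were 257 and 201. These lists and genes were taken because they were already past 1 in size, so a kept sign says little about stability. A filter keeps or drops a gene and cannot change the sign of its own value. A gene that the mean filter or the length setting left out was not assessed there, so genes with low levels met fewer settings. List medians in those settings rest on the members left. At a pseudocount of 5 the medians of AP-1 factors, NF-kB genes, SR and hnRNP factors and smooth muscle genes were 0.47, 0.82, −0.98 and 0.92. Depth limits genes with few arsenite reads: 423 positive and 304 negative genes had under 10 reads in an arsenite library.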
